A study of Arabidopsis thaliana with 6 samples.

Results

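The translocase of the outer mitochondrial membrane (TOM complex) was described through 10 of its genes, taken by gene identifier from a deposited table of 22426 loci. The members were the channel gene TOM40-1 (AT3G20000), the receptor genes TOM20-1 (AT3G27070), TOM20-2 (AT1G27390), TOM20-3 (AT3G27080) and TOM20-4 (AT5G40930), TOM9-2 (AT5G43970), and the small-subunit genes TOM5 (AT5G08040), TOM6 (AT1G49410), TOM7-1 (AT5G41685) and TOM7-2 (AT1G64220). The family was chosen by measured values, namely the FPKM of TOM7-2 in the mutant and wild-type libraries, so the differences between the groups are given for all 10 members as descriptions, with no p-value. RNA came from whole Arabidopsis thaliana seedlings at 2 weeks of age, in 3 libraries from plants labelled NCBP mutant and 3 from wild-type plants. Both groups were grown at 22 °C under 16 hours of light and 8 hours of dark. NCBP (AT5G18110) encodes a relative of eIF4E that binds the mRNA cap, and the labels used here give neither the allele, the accession line nor the number of plants behind a library.

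Most mitochondrial proteins are made in the cytosol and enter the organelle through the TOM complex. TOM40 forms the pore, TOM20 binds the targeting presequence, and TOM9 is the short plant counterpart of the TOM22 of yeast and animals. TOM5, TOM6 and TOM7 are single-span proteins that sit around the pore, and in yeast TOM6 and TOM7 are known to influence how stably the complex holds together. Plant TOM20 is anchored by its far end and arose separately from the TOM20 of animals and fungi. Several subunits are encoded by more than 1 gene in Arabidopsis.

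The family was chosen on TOM7-2. The coding sequences of the TOM7 pair are therefore shown, to make clear how far the genes can be told apart by reads. Both are from the RefSeq annotation of TAIR10.1, written 5′ to 3′. Capitals mark bases that differ from the other gene or have no partner in it.
TOM7-2: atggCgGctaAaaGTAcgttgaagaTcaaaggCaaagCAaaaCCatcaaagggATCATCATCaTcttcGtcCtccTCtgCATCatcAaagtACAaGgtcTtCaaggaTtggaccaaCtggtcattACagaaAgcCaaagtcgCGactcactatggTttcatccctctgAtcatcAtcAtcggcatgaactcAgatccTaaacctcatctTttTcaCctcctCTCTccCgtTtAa
TOM7-1: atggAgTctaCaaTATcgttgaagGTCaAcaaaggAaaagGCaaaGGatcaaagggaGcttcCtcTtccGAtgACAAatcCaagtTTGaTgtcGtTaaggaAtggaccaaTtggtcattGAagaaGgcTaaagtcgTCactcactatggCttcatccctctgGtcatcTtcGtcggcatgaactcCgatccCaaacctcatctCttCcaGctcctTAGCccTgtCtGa
TOM7-2 lies on chromosome 1 and TOM7-1 on chromosome 5, each on the minus strand as a single exon. Over 225 aligned coding bases 173 were identical (76.9%), and the longest run shared without a difference was 13 bases. Of the 257 stretches of 50 bases in the exon of TOM7-2, 0 occurred at any other place in the genome, and the count was also 0 for each of the other 9 members. The annotated exon of TOM7-2 has 306 bases and ends with the coding sequence, whereas the exons of the other members add up to between 575 and 1750 bases.

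NCBP transcript was lower in the libraries labelled NCBP mutant, and the summed shoot and root markers stood above those of flower, seed and pollen. Reads of NCBP could be shared by position, since CSD3 (AT5G18100) covers 12.7% of its exons on the opposite strand. CSD3 averaged 60.9 FPKM in the mutant and 46.1 FPKM in wild type. NCBP had 57.9, 59.2 and 55.8 FPKM (fragments scaled to gene length and to the library's total) in the mutant libraries, against 97.4, 100.4 and 97.9 FPKM in wild type, with a log2 fold change of -0.76 (SE 0.05, limma adjusted p 0.000146). The FPKM of 5 shoot markers summed to between 55355 and 59380 in the mutant and between 51492 and 62646 in wild type, and that of 5 root markers to between 110.5 and 119 and between 103.5 and 132. The sums of 5 flower markers lay between 3.85 and 4.80 in the mutant and between 3.36 and 5.35 in wild type, and those of the listed seed and pollen markers were under 1 FPKM in each library. Some single markers did separate the groups. Means of GLK1 (161 against 136 FPKM in wild type), NRT2.1 (2.42 against 0.932) and SEP3 (2.91 against 1.92) were higher in the mutant without overlap. CA1 (2682 against 2942) and the low pollen marker HAP2 were lower without overlap, and the other measured markers overlapped. The absolute depth is unknown, since no library totals were given. In whole plants, fewer cells with a transcript and less of it per cell cannot be told apart. The labels do not say whether replicates were separate sowings, so p-values reflect only how these libraries vary, which may be technical.

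The small-subunit gene TOM7-2 was detected in the mutant libraries alone. It was listed at 17.1, 3.03 and 14.3 FPKM in mutant replicates 1, 2 and 3, whereas all 3 wild-type libraries listed it at 0. The mutant values were themselves spread, with replicate 2 far below the other two, and the groups did not overlap. A listed 0 can be a failed estimate, so no fold is given. Its paralogue TOM7-1 was much more abundant, at 95.9, 94.4 and 93.2 FPKM in the mutant against 108.6, 102.2 and 85.7 FPKM in wild type. The mutant libraries lay inside the wild-type range for TOM7-1 (log2 fold change -0.06, SE 0.08).

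Added together, the TOM7 pair had 113.1, 97.4 and 107.5 FPKM in the mutant and 108.6, 102.2 and 85.7 FPKM in wild type, and these sums overlapped. TOM7-2 made up 15.2%, 3.11% and 13.3% of the pair in the mutant libraries and 0% in each wild-type library. In total, 1167, 1213 and 1127 loci were listed at 0 in the mutant libraries and 1345, 1275 and 1204 in the wild-type libraries. Of 22426 loci, 48 were listed at 0 in all wild-type libraries and above 0 in all mutant libraries, and 29 showed the reverse. Only TOM7-2 and the plastid locus ATCG00640 went with at least 3 FPKM in every mutant library, and 0 loci had at least 3 FPKM in every wild-type library and 0 in every mutant library. The bound of 3 FPKM was set just under the lowest mutant value of TOM7-2 after its values were seen, so the place of TOM7-2 in this count was fixed by that choice.

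**Figure D1:**
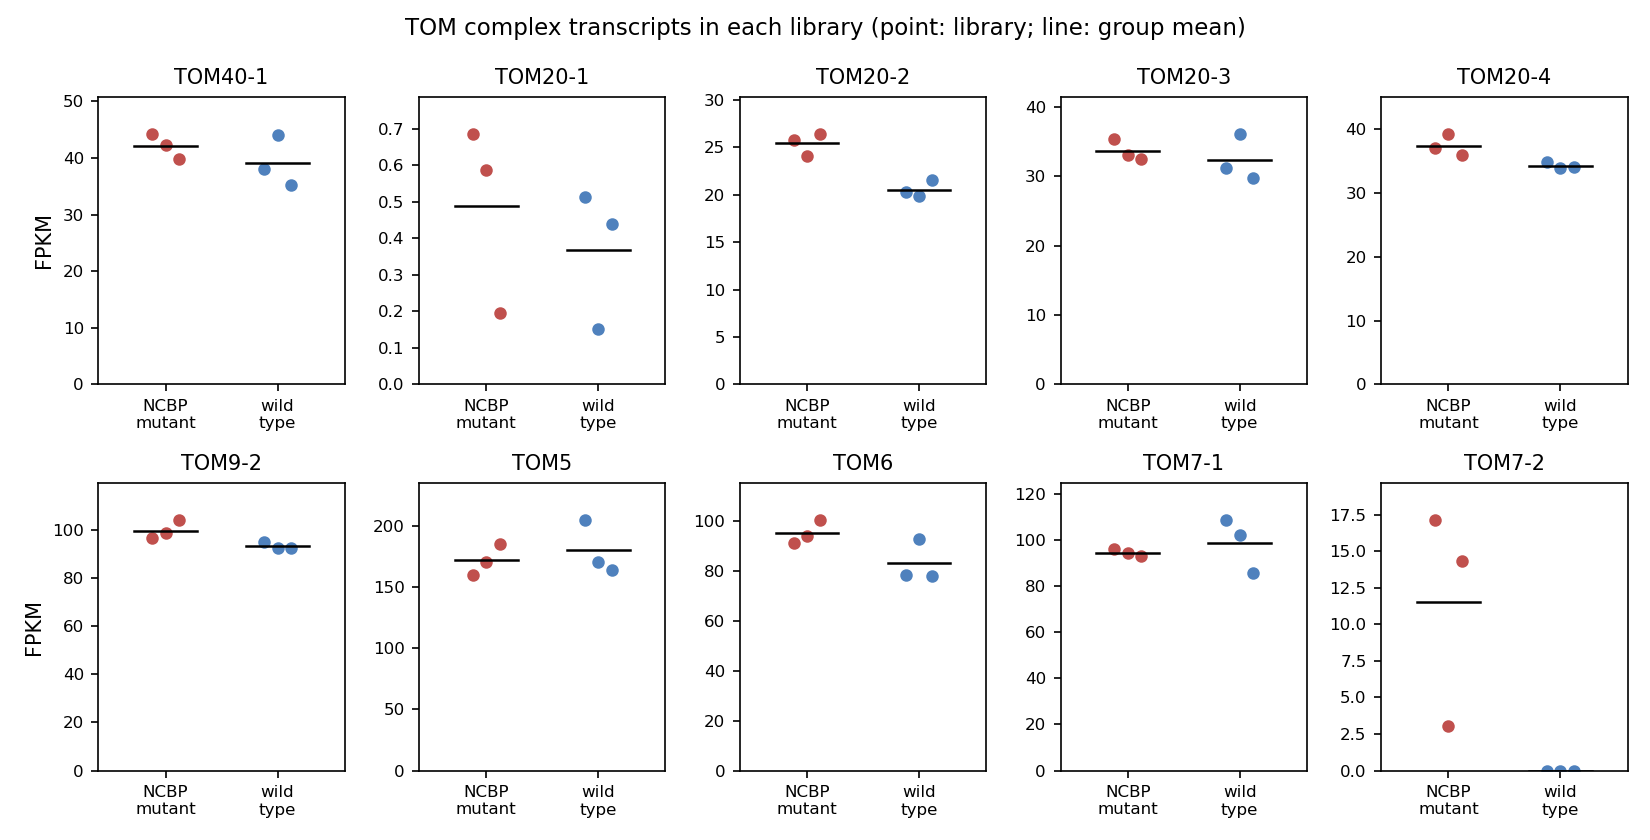
FPKM of each of the 10 members in the 3 NCBP mutant libraries (left in each panel) and the 3 wild-type libraries (right), with a line at the group mean; each panel has its own axis starting at 0. TOM7-2 stands at 17.1, 3.03 and 14.3 FPKM in the mutant against 0 in wild type, while the mutant points of TOM7-1 lie within its wild-type range.

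Because TOM7-2 is short, the listed zeros were set against annotated length. The annotation gave exons for 22053 loci. Among 67 loci with 301 to 400 exonic bases, the class of TOM7-2, 6 (8.96%) were listed at 0 in a library and at 3 FPKM or more in another, and 5 of them (7.46%) did so between libraries of the same group. TOM7-2 is itself counted in the 6 and not in the 5, at the bound of 3 FPKM that was set on its values. Among 57 loci of up to 300 bases, 24 (42.1%) switched within a group. The share was 0.704% for 601 to 1000 bases, where 20 of 2842 loci switched within a group, and 0 of 18649 longer loci did so. With a bound of 1 FPKM, 11 loci of its class switched within a group. The part of gene length in the TOM7-2 difference was not tested.

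**Figure D2:**
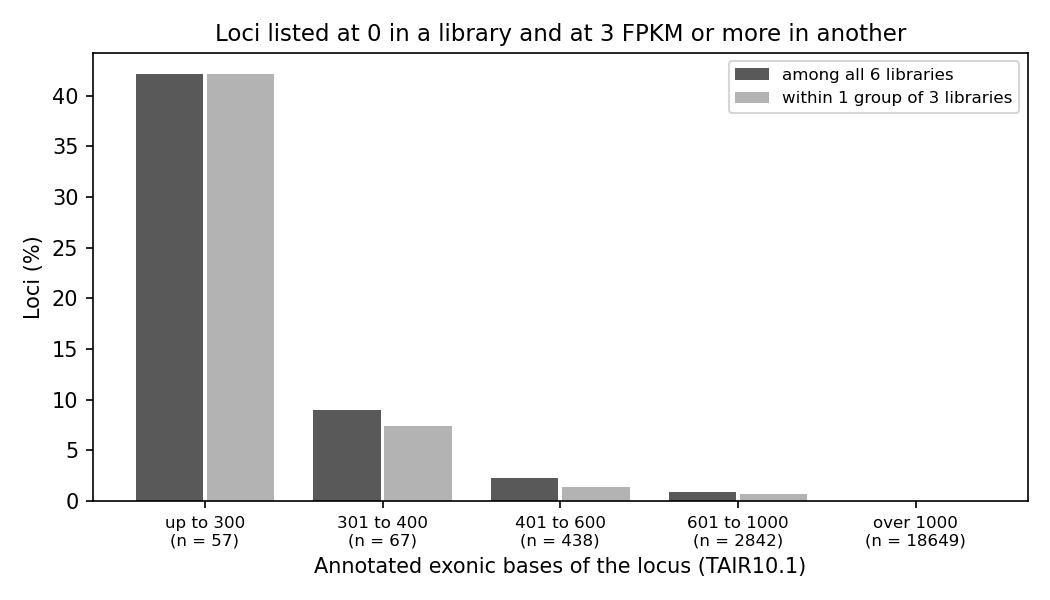
Percentage of loci listed at 0 FPKM in a library and at 3 FPKM or more in another, by annotated exonic length, among all 6 libraries (dark) and within a group of 3 libraries (light); n is the number of loci in each class. The share within a group goes down over the length classes, with 42.1% up to 300 bases and 7.46% for 301 to 400 bases, the class that holds TOM7-2. TOM7-2 itself is counted in the dark bar of that class and not in the light bar.

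The loci on either side of TOM7-2 were at like levels in both groups. UBC28 (AT1G64230), a ubiquitin-conjugating enzyme gene that runs the other way and whose annotated start lies 91 bases from that of TOM7-2, had 316, 330.2 and 369 FPKM in the mutant and 313, 334 and 338 FPKM in wild type (log2 fold change 0.04, SE 0.07, limma adjusted p 0.717). AT1G64210, a leucine-rich repeat kinase gene 224 bases beyond its annotated end, stayed under 1 FPKM in each library. TOM7-2 shared no exonic base with another annotated locus.

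Of the 3 TOM20 genes in the fit, whose differences from each other were not tested, TOM20-2 had the largest log2 fold change. It had 25.8, 24.1 and 26.4 FPKM in the mutant and 20.3, 19.8 and 21.5 FPKM in wild type, so each mutant library lay above each wild-type library (log2 fold change 0.29, SE 0.06). TOM20-4 had 37.1, 39.3 and 35.9 FPKM in the mutant and 34.9, 34.0 and 34.1 FPKM in wild type, a smaller shift in the same direction without overlap (log2 fold change 0.12, SE 0.05). TOM20-3, at 35.3, 33.0 and 32.6 FPKM in the mutant against 31.1, 36.1 and 29.7 FPKM in wild type, overlapped between the groups (log2 fold change 0.06, SE 0.08). These 3 genes supplied nearly all TOM20 transcript.

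TOM20-1 was close to silent in both groups. It had 0.686, 0.588 and 0.194 FPKM in the mutant and 0.512, 0.15 and 0.439 FPKM in wild type, which overlapped, and it was under the mean of 1 FPKM needed for the fit. It lies 138 bases from TOM20-3 on the same strand of chromosome 3, and their coding sequences were 80.1% identical, the closest pair among the TOM20 genes, with a longest shared run of 26 bases. The other TOM20 pairs were between 61.2% and 71.6% identical. The neighbouring pair thus held similar coding sequences at very different levels, with means of 0.49 and 33.6 FPKM in the mutant and 0.367 and 32.3 FPKM in wild type for TOM20-1 and TOM20-3. The loci outside the pair were both called, with TSO2, a ribonucleotide reductase subunit gene, higher (log2 fold change 0.22, limma adjusted p 0.0272) and AT3G27090 lower (-0.20, limma adjusted p 0.0498).

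The TOM20 genes summed to 98.9, 97.0 and 95.1 FPKM in the mutant and 86.8, 90.0 and 85.8 FPKM in wild type. The sums did not overlap, also after each library was rescaled to the same total or by the median ratio. Among single tested genes, 35.5% did not overlap, 16.4% with the mutant higher. TOM20-2 supplied 26.2% ± 1.48 of the sum in the mutant and 23.5% ± 1.54 in wild type (SD, n = 3 each), TOM20-3 34.7% ± 0.906 and 36.9% ± 2.83, and TOM20-4 38.6% ± 1.65 and 39.2% ± 1.28. Each of these shares overlapped between the groups. All 10 members together summed to 604.4, 600.2 and 632.5 FPKM in the mutant and 611.6, 592.7 and 541.9 FPKM in wild type, which overlapped.

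TOM9-2, listed as TOM22-V in the annotation, had 96.6, 98.8 and 104.1 FPKM in the mutant against 94.9, 92.4 and 92.5 FPKM in wild type. The groups did not overlap, but the shift was small (log2 fold change 0.10, SE 0.05). The pore gene TOM40-1 had 44.2, 42.3 and 39.9 FPKM in the mutant and 38.1, 44.1 and 35.3 FPKM in wild type, with 1 wild-type library inside the mutant range (log2 fold change 0.11, SE 0.08).

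TOM5, which in yeast helps pass precursors to the pore, was the most abundant member. It had 160, 171 and 185 FPKM in the mutant and 205, 171 and 164 FPKM in wild type, with overlap (log2 fold change -0.06, SE 0.09). TOM6 had 91.3, 94.2 and 100.4 FPKM in the mutant and 78.3, 92.9 and 78.2 FPKM in wild type, where the overlap came from wild-type replicate 2 alone (log2 fold change 0.20, SE 0.08). After rescaling to the same total or by the median ratio, the groups of TOM6 no longer overlapped. Reads could be shared by position in 3 members: AT5G41680 covers 59.3% of the exon of TOM7-1 and AT5G08050 13.3% of that of TOM5 on the opposite strand, and AT1G49405 covers 14.6% of TOM6 on the same strand. AT5G41680 averaged 0.453 FPKM in the mutant and 0.488 FPKM in wild type and AT1G49405 1.23 and 2.00 FPKM, so both were far below the member they touch, while AT5G08050 averaged 393 FPKM in the mutant and 394 FPKM in wild type, above TOM5. Whether the libraries keep strand is not given in the sources used.

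**Figure D3:**
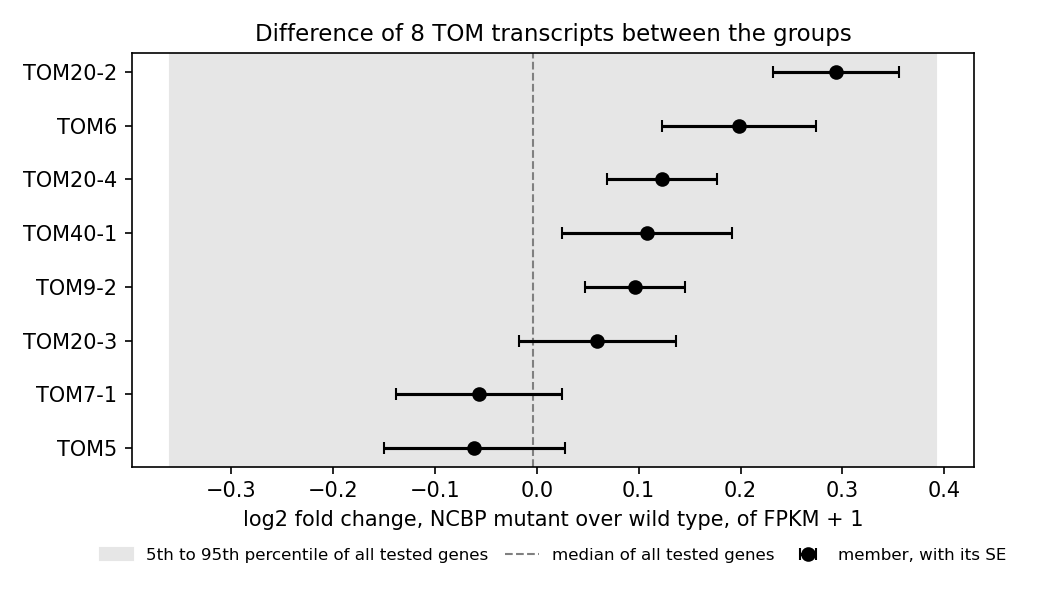
Log2 fold change of FPKM + 1, NCBP mutant over wild type, for 8 members with the SE from the fit across all genes; the grey band spans the 5th to 95th percentile of all 18064 tested genes (-0.36 to 0.39). The 8 values lie between -0.06 for TOM5 and 0.29 for TOM20-2, inside the band; TOM7-2 (listed at 0 in wild type) and TOM20-1 (under the filter) have no value here.

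Across the whole table, 2657 of 18064 tested genes (14.7%) changed in the mutant at a limma adjusted p under 0.05, with 1133 (6.27%) higher and 1524 (8.44%) lower; after rescaling to the same total, 1286 were higher and 1100 lower. Of the 10 members, 9 passed the filter, TOM7-2 through its mutant values alone. TOM7-2 and TOM20-2, 2 of the 9, fell on the called side of that threshold, both higher, which for TOM7-2 was set by how the family was chosen and by the filter. The groups did not overlap for TOM7-2, TOM20-2, TOM20-4 and TOM9-2, each higher in the mutant, where 35.5% of all tested genes did not overlap and 16.4% did so with the mutant higher. Without mutant replicate 1 or 3, TOM20-2 was on the other side of the threshold, at log2 fold changes of 0.28 and 0.27. Without wild-type replicate 2, TOM6 was on the called side as well. Since this comparison brought up the family, these counts describe the members and nothing is read from them.

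The levels of the members covered a wide range. In order of mean FPKM over the 6 libraries they ran TOM5 (176), TOM7-1 (96.7), TOM9-2 (96.5), TOM6 (89.2), TOM40-1 (40.6), TOM20-4 (35.9), TOM20-3 (33.0), TOM20-2 (23.0), TOM7-2 (5.75) and TOM20-1 (0.428). TOM5 lay above TOM7-1 by 0.86 ± 0.10 on the log2(FPKM + 1) scale (SD, 6 libraries), and TOM6 above TOM40-1 by 1.11 ± 0.11. Of 9 neighbouring pairs, 5 kept the same order in all 6 libraries: TOM5 over TOM7-1, TOM6 over TOM40-1, TOM40-1 over TOM20-4, TOM20-3 over TOM20-2, and TOM20-2 over TOM7-2. Apart from the pair with TOM7-2, each of these had an exact 2-sided sign-flip permutation p of 0.03125, the smallest that 6 libraries allow. After adjustment over the 9 pairs it was 0.05625, so 0 pairs passed 0.05. Pairs with TOM7-2 are given without a p, since its values chose the family and its zeros may be failed estimates. They did enter the adjustment. The order varied between libraries for TOM7-1 and TOM9-2 (exact permutation p 1), TOM9-2 and TOM6 (adjusted 0.09375), TOM20-4 and TOM20-3 (0.121), and TOM7-2 and TOM20-1. The last pair had opposite orders in the groups: TOM7-2 lay above TOM20-1 in each mutant library and below it in each wild-type library, so its place in an order pooled over both groups describes neither. The pairs follow the order of the same values, and FPKM of short genes depends on how the program treats fragment length, which the sources used do not say.

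Set against the pore gene, TOM9-2 and the small-subunit genes TOM5, TOM6 and TOM7-1 had higher FPKM in both groups. The ratio of FPKM to that of TOM40-1 was 4.10 ± 0.516 in the mutant and 4.64 ± 0.752 in wild type for TOM5 (SD, n = 3 each). It was 2.27 ± 0.23 in the mutant and 2.13 ± 0.0814 in wild type for TOM6, and 2.25 ± 0.0842 in the mutant and 2.53 ± 0.283 in wild type for TOM7-1. TOM9-2 was in the same range, at 2.38 ± 0.216 in the mutant and 2.40 ± 0.275 in wild type. TOM20-3 followed TOM40-1 closely, at ratios of 0.798, 0.781 and 0.816 in the mutant and 0.818, 0.818 and 0.843 in wild type. The mutant ratios lay just below those of wild type, the nearest being 0.816 and 0.818. TOM20-4 averaged 0.889 in the mutant and 0.884 in wild type, and TOM20-2 0.605 and 0.531. Their ratios and those of TOM5, TOM6, TOM7-1 and TOM9-2 overlapped between the groups.

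The genes whose values over the 6 libraries were most like those of TOM7-2 and TOM40-1 differed. With TOM7-2 the highest Pearson correlations of log2(FPKM + 1) were those of MCM6, a DNA replication helicase subunit (0.997), the homeobox gene KNAT4 (0.996), AT4G38890 (0.992), PCR1 (0.99) and AT2G21220 (0.988). MCM6 had 5.28, 4.46 and 5.28 FPKM in the mutant and 3.54, 3.62 and 3.53 FPKM in wild type. With TOM40-1 they were RPS6, a protein of the small ribosomal subunit (0.998), the ribosomal protein gene AT1G74060 (0.988), AT5G48680 (0.987), BBC1, which encodes a ribosomal protein (0.986), and AT2G20420 (0.984). RPS6 had 275, 261 and 250.1 FPKM in the mutant and 239.9, 273 and 222 FPKM in wild type. These correlations describe 6 libraries in 2 groups, picked as the highest of all genes. Likeness of these genes to TOM7-2 or TOM40-1 was therefore fixed by the pick. The correlations with TOM7-2 also take its wild-type zeros as measured values, though these zeros may be failed estimates.

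Site II elements, short motifs known from promoters of many nuclear genes for mitochondrial and ribosomal proteins, were looked for as TGGGCC and TGGGCT on both strands, from 250 bases before to 50 after each annotated start. A match that overlaps its own reverse complement counts once on each strand. At least 1 match was found for TOM20-2, TOM20-3, TOM20-4, TOM6 and TOM9-2, 5 of 10 members, against 21.7% of 27443 protein-coding promoters. TOM20-2, TOM20-4, TOM6 and TOM9-2 had 2 or more, against 13.7% of all promoters. The stretches of TAIR10.1 that hold the matches before the start are shown for the 3 members with 3 matches each, on the strand of the gene, with the motifs in capitals; the third match of TOM20-2 lies after the start.
TOM20-2: tcataTGGGCCttcTGGGCCactta
TOM20-4: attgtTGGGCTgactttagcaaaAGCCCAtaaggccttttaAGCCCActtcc
TOM9-2: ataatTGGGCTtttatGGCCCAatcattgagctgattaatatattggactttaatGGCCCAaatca
The stretches end 20, 52 and 19 bases before the annotated starts of TOM20-2, TOM20-4 and TOM9-2, on chromosomes 1, 5 and 5. Among tested genes, the median log2 fold change was 0.01 for the 3061 with 2 or more matches and -0.01 for the 13231 with none. Called genes made up 11.3% of those with 2 or more and 15.6% of those with none. A match is a description of these letters and shows no binding.

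Other genes of mitochondrial import moved in both directions. In 3 lists of 43 genes, 41 entered the fit: 4 rose in the mutant, 3 fell, and 34 missed the threshold. That is 17.1% called beside 14.7% of all genes, with a median log2 fold change of 0.05 against -0.00 over all tested genes. The members' closest relatives did not pass: TOM9-1 averaged 16.3 ± 2.03 FPKM in the mutant and 14.2 ± 1.00 FPKM in wild type, and TOM40-2, under the filter, 0.653 ± 0.206 and 0.652 ± 0.429 FPKM.

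In the outer membrane list, 1 of 9 tested genes fell and 0 rose. It was VDAC1 (AT3G01280), a porin for small metabolites, at 142.3, 133 and 139 FPKM in the mutant and 159, 160 and 153 FPKM in wild type (log2 fold change -0.19, SE 0.05, limma adjusted p 0.0356). OM64, a receptor-like protein, and the SAM50 genes and METAXIN, which help insert proteins into that membrane, did not pass. OM64 and SAM50-1 were nonetheless higher in each mutant library than in each wild-type library. With VDAC1, the groups did not overlap for 3 of 9 genes of this list (33.3%), beside 35.5% of all tested genes. In the list of the intermembrane space and inner membrane, 2 of 16 rose and 2 fell. The groups did not overlap for 5 of these 16 genes (31.25%). TIM17-2 (AT2G37410), a core part of the presequence translocase, fell to 66.6 ± 2.48 FPKM in the mutant, against 83.1 ± 5.96 FPKM in wild type (log2 fold change -0.31, SE 0.06, limma adjusted p 0.014). Its paralogue TIM17-1 (AT1G20350) fell as well, at 0.947, 1.01 and 2.64 FPKM in the mutant and 3.83, 3.94 and 3.32 FPKM in wild type (limma adjusted p 0.0261). TIM10 (AT2G29530), a small chaperone of the intermembrane space, rose to 65.1 ± 2.50 FPKM, against 53.2 ± 3.67 FPKM in wild type (log2 fold change 0.29, SE 0.06, limma adjusted p 0.0184). TIM44-2 (AT2G36070), which tethers the import motor, rose by 0.26 (SE 0.06, limma adjusted p 0.0296).

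In the matrix list, 2 of 16 rose and 0 fell. They were the motor chaperone MTHSC70-1 (AT4G37910), with 30.3 ± 2.55 FPKM in the mutant and 24.6 ± 1.71 FPKM in wild type (limma adjusted p 0.0401), and the folding chaperonin HSP60-2 (AT2G33210), with 13.8 ± 0.778 and 11.1 ± 0.961 FPKM (limma adjusted p 0.0385). The median log2 fold change of this list was 0.07. Its groups did not overlap for 8 of 16 genes (50%), with PAM18-2 lower in the mutant and the others higher. Of all tested genes, 35.5% did not overlap, 16.4% with the mutant higher. The list was not tested as a set. Of 10 tested genes of plastid import, set beside them as the other organelle, 1 rose and 1 fell. The groups did not overlap for 5 of these 10 genes (50%), with HSP93-V lower in the mutant and the others higher. The stromal chaperone HSP93-V (AT5G50920, CLPC1) fell to 491 ± 11.9 FPKM in the mutant, against 590.4 ± 29.3 FPKM in wild type (log2 fold change -0.26, SE 0.06, limma adjusted p 0.0165). The receptor TOC34 (AT5G05000) rose to 26.3 ± 0.828 FPKM, against 22.5 ± 1.16 FPKM (limma adjusted p 0.0426). These calls were close to the threshold: of the mitochondrial and plastid genes together, 9 were called with all libraries, 0, 1 and 5 without mutant replicates 1, 2 and 3, and 2, 7 and 3 without wild-type replicates 1, 2 and 3.

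**Figure D4:**
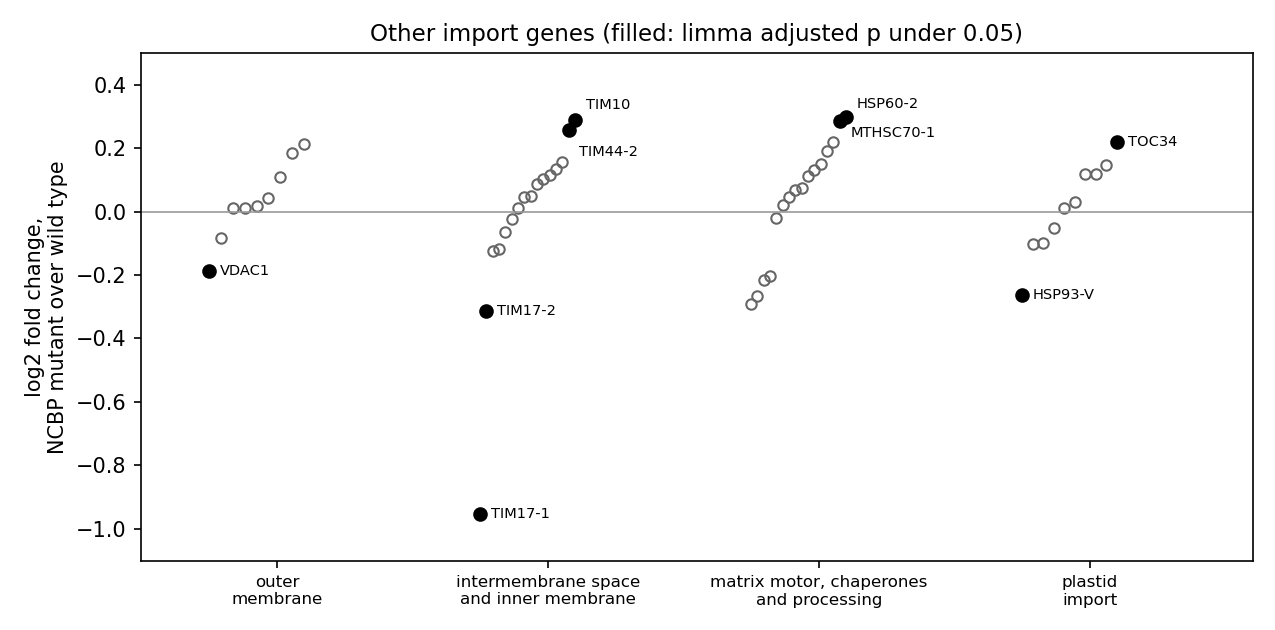
Log2 fold change of FPKM + 1, NCBP mutant over wild type, for the 51 tested genes of the 3 mitochondrial lists and the plastid list, each point a gene; filled points passed a limma adjusted p of 0.05 and are named. The 9 filled points lie on both sides of 0, with TIM17-1 the lowest at -0.95 and HSP60-2 the highest at 0.30.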

How the data were processed

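RNA was sequenced from 3 NCBP mutant and 3 wild-type libraries. The values are FPKM as deposited by the authors in 1 table; the submitters' processing notes name HISAT2 and no version. Which program, build and annotation gave the FPKM is not given in the sources used. Each column was matched to its sample by its label. FPKM divides by gene length and library total; library sums ran between 970383 and 1040255, with 1127 to 1345 loci at 0.

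Values were analysed as log2(FPKM + 1), which understates changes of low genes. Genes with a mean of at least 1 FPKM were tested with limma 3.58.1 in R 4.3.3 (mean trend, 2-sided, Benjamini-Hochberg over 18064 genes, threshold 0.05); every adjusted p of a gene is from this fit. The step was tested on simulated data. Names, exons and sequences come from RefSeq TAIR10.1, which matched 22053 of 22107 nuclear loci and all 10 members. No coordinates are printed, as the authors' build is not named. Coding sequences were aligned with Biopython 1.88.

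The members and lists were chosen with earlier results of these data known. Named genes were the members, NCBP, up to 4 called genes of each list, the 5 genes most like TOM7-2 and like TOM40-1, and neighbours or overlapping genes; further genes complete a count. The site II search, the length classes and the family sums were added after values were seen. The alternatives tried were a pseudocount of 0.1 or 5, testing all genes or those with a mean of 5 FPKM, rescaling to the same total (TPM), median-ratio scaling, a replicate block and leaving out each library.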

Additional observations from a re-analysis of the deposited data

How the results depend on the processing

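The change of NCBP kept its direction and its call under each alternative, with log2 fold changes between -0.78 and -0.74 when a library was left out. The count of members on the called side, 2, was between 1 and 3 when a library was left out; it shows no stability, since the family was chosen on this comparison. The count of changed genes was 1991 with the replicate block and between 1321 and 1997 when a library was left out, against 2657, with smaller groups in each such fit. Of the mitochondrial and plastid import genes, 9 were called; with the replicate block 5 were, and between 0 and 7 when a library was left out. VDAC1 also lost its call after rescaling to the same total (adjusted p 0.0641), and HSP60-2, MTHSC70-1 and TOC34 did with no filter (0.0617, 0.0614 and 0.0507). TIM17-1 was not tested at a mean of 5 FPKM. Over the alternatives, the largest adjusted p was 0.0546 for TIM17-2, 0.0658 for HSP93-V, 0.0674 for TIM10, 0.0832 for TIM17-1, 0.107 for TIM44-2, 0.125 for MTHSC70-1, 0.126 for HSP60-2, 0.131 for TOC34 and 0.141 for VDAC1. Without wild-type replicate 1 the log2 fold changes of TOM7-1 and TOM5 were 0.01 and 0.03, above 0. The 2 scalings moved the median of all tested genes to 0.02 and 0.00. The values gave no sign that replicate numbers pair the libraries. Same-numbered libraries deviated from their group means with correlations of 0.07, -0.07 and -0.06, and a library did not always correlate best with its own number. With 3 libraries in each group, this cannot settle whether they were handled in pairs. No order of neighbouring levels passed 0.05 under either other pseudocount or with a library left out, where 5 libraries cannot give a p under 0.05. Low values such as those of TOM20-1 rest on few reads at an unknown depth.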
